A study of Arabidopsis thaliana with 8 samples.

Results

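The comparison described here is that of *pkl-1* seeds with Col-0 seeds, 4 of the 8 samples of the series, and it covers all 38209 genes of the table that sets these genotypes side by side. The 4 samples were taken by their genotype labels and the genes without any selection on their values. Of the 38209 genes, 24052 were above 0 in either genotype and 18645 reached at least 1 FPKM (read pairs assigned to a gene, divided by its transcript length and by the size of the library) in either genotype, and these 18645 are called expressed below. The authors pooled both replicates of a genotype into 1 FPKM value before deposit, so no gene has a value per seed batch, an error or a test here. All differences are therefore descriptions of the pooled values, and a gene is called higher or lower where (FPKM + 1) in *pkl-1* over (FPKM + 1) in Col-0 was past 2-fold in either direction, which is 1 on the log2 scale used throughout.

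PICKLE (*PKL*) encodes a CHD-type ATP-dependent chromatin remodeler, a protein that moves or spaces nucleosomes using the energy of ATP. In Arabidopsis it is best known for shutting down embryonic genes such as *LEC1* when seeds germinate, for acting in gibberellin responses, and for its association with the Polycomb mark H3K27me3, at whose target genes it is active. A young seed combines tissues of different origin, the embryo, the nourishing endosperm and the maternal seed coat, and whole seeds were sequenced, so that fewer cells of a tissue and less RNA per cell cannot be told apart in any value below.

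The seeds came from *pkl-1* plants, which carry a mutated *PKL* and an intact *PKR2*, and from Col-0 plants, the wild-type background of that mutant, with 2 biological replicates each. Seeds from 30 or more siliques made up each replicate, harvested 4 days after pollination by the sample labels and 3 by the extraction protocol, from plants grown in 16 h of light. Set beside them, with no library in common, are *pkr2-2;pkl-10* seeds and *pkr2-2* seeds, in which *PKL* is lost through another allele while both genotypes carry the *pkr2-2* mutation. The RNA was enriched for poly(A) tails and sequenced as read pairs. The smallest values of transcripts of 2000 nucleotides or more fell on blurred steps that put 1 FPKM of a 1-kb transcript at about 40 to 44 fragments in *pkl-1* and 35 to 38 in Col-0, so exact fragment numbers were not recovered and no counting interval is given.

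The *pkl-1* allele was followed by the study with a primer pair whose second member exists in a wild-type and a mutant form. They are shown because they place the lesion that separates the genotypes, with the allele-specific base in capitals.
forward: agcattctgtgcccaactga
wild-type reverse: caattcgctcgtactgccattaC
mutant reverse: caattcgctcgtactgccattaT
Counted from the 5′ end of the reverse primer, the forms differ by C23T, the wild-type base first. In TAIR10.1 the forward primer matched chromosome 2 from 10718010 to 10718029 and the reverse primers lay at 10718599 to 10718621 on the opposite strand, where the wild-type form had 1 mismatch to the genome (A22T, the primer base first). The allele-specific base was at 10718599, in an intron of all 4 annotated *PKL* transcripts and directly before the exon from 10718600 to 10718769, the position of a splice acceptor. *PKL* itself (AT2G25170, chromosome 2, 10713807 to 10724106, plus strand) was at 15.2 FPKM in *pkl-1* and 12.8 FPKM in Col-0, a log2 difference of 0.23, so the level of the transcript does not mark the mutant. This gene-level value says nothing about how the transcript was spliced. *PKR2* (AT4G31900), its closest relative in the series, was at 2.19 FPKM in *pkl-1* and 3.36 FPKM in Col-0 (log2 difference -0.45).

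Across the expressed genes, 1214 (6.51%) were higher and 1140 (6.11%) lower in *pkl-1*, and the median log2 difference was -0.01. Counts of higher and lower members in every list below are to be read against these shares. At least 4-fold changes were found in 213 genes upwards and 189 downwards. The balance of higher and lower calls depended on the scale: the summed FPKM was 748208 in *pkl-1* and 938357 in Col-0, and with the nuclear FPKM scaled to a common sum the median moved to 0.28 and the calls to 2220 higher and 717 lower, so that 75.6% of calls were rises in place of 51.6%. Differences below are given as deposited, and a median of a list near 0 is to be read with that shift in mind. Of the genes named below as lower, AT5G38195, *HTA11*, *HTA6*, *WRI1*, *PHE2*, *MINI3*, *KAO1*, *KAO2*, *GA20OX3*, *LHCB1.3*, *EXPA25* and *SWEET12* were no longer past 2-fold on that common sum. Transcripts shorter than 300 nucleotides carried a disproportionate share of the extreme values, and without them 1142 of 18456 genes were higher (6.19%) and 1059 lower (5.74%). On the higher side the genes nearest to the limit were AT1G63210, at 2.50 FPKM in *pkl-1* and 0.750 FPKM in Col-0, just inside it, and *ATE2F2*, at 11.2 FPKM in *pkl-1* and 5.09 FPKM in Col-0, just outside. On the lower side they were AT3G03920, at 112 FPKM in *pkl-1* and 226 FPKM in Col-0, just inside it, and AT4G31073, at 0.429 FPKM in *pkl-1* and 1.86 FPKM in Col-0, just outside.

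The higher genes were mostly of low abundance and the lower genes reached into the most abundant mRNAs of the seed. Of the genes of at least 300 nucleotides, 43 were higher and 186 lower among the 1619 that reached 100 FPKM in either genotype. Among the 100 genes that reached 1000 FPKM, 2 were higher and 25 lower. The calls were spread over the 5 nuclear chromosomes, with 6.13% to 7.16% of expressed genes higher and 5.78% to 6.31% lower on each.

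**Figure D1:**
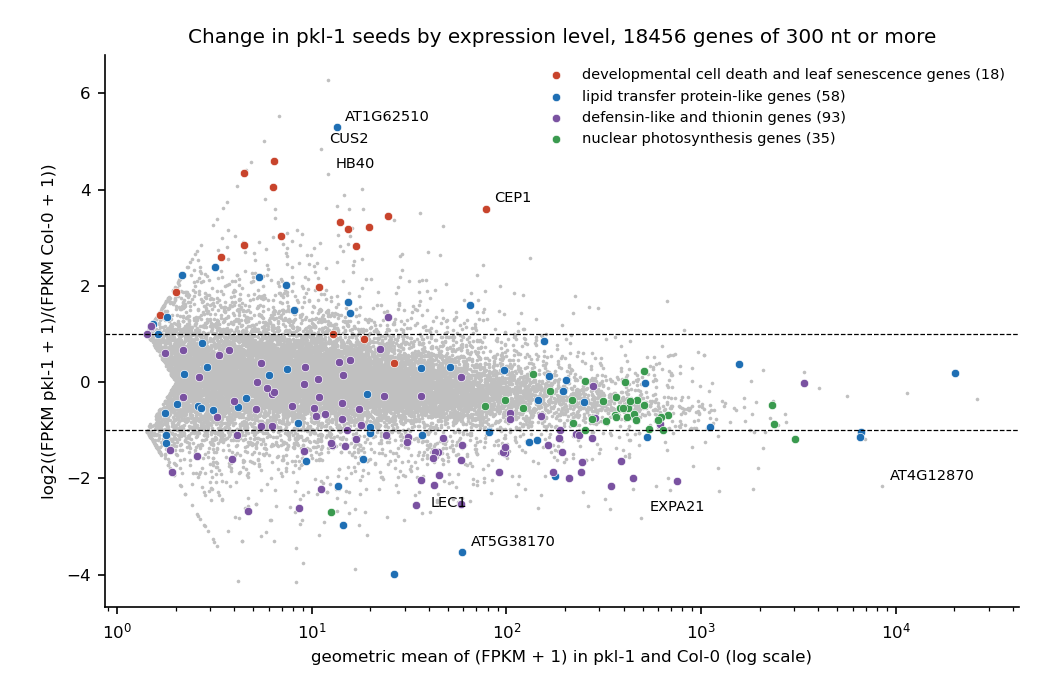
Change in *pkl-1* against Col-0 (vertical axis, log2 of the ratio of FPKM + 1) by the geometric mean of FPKM + 1 in both genotypes (horizontal axis, log scale), for 18456 genes of 300 nucleotides or more; dashed lines mark 2-fold and colours mark gene lists. Cell death and senescence genes lie at the upper left, while the genes at the right, above 1000 FPKM, lie mostly below 0.

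A group among the rises comprised genes of developmental cell death, the programme by which plant tissues such as the tapetum, the root cap and xylem vessels dismantle their own cells. This list was put together after the values were seen, so its count is a description: 8 of its 9 genes were higher in *pkl-1*, none was lower, and the median log2 difference was 3.18. *CEP1*, a papain-type cysteine endopeptidase, was at 272 FPKM in *pkl-1* and 21.5 FPKM in Col-0 (log2 difference 3.60). Its relative *CEP2* was at 43.1 FPKM in *pkl-1* and 3.43 FPKM in Col-0. *BFN1*, a nuclease that degrades RNA and DNA, was at 80.5 FPKM in *pkl-1* and 6.44 FPKM in Col-0 (3.45). The other hydrolase genes of the list moved likewise. The metacaspase gene *MC9* (45.3 FPKM in *pkl-1* and 4.1 FPKM in Col-0), the ribonuclease gene *RNS3* (44.0 FPKM in *pkl-1* and 5.35 FPKM in Col-0) and the aspartic protease gene *PASPA3* (20.6 FPKM in *pkl-1* and 4.49 FPKM in Col-0) all passed 2-fold, as did the membrane protein gene *DMP4* (59.4 FPKM in *pkl-1* and 5.44 FPKM in Col-0). *SCPL48*, a serine carboxypeptidase-like gene, was the exception, at 29.3 FPKM in *pkl-1* and 21.9 FPKM in Col-0.

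Genes of leaf senescence, also listed after the values were seen, were higher in the same seeds, with 7 of 9 expressed genes past 2-fold and a median of 2.84. *ORE1*, a NAC transcription factor that promotes senescence of leaves, was at 24.7 FPKM in *pkl-1* and 0.548 FPKM in Col-0 (4.06). A second NAC gene of this kind, *NAP*, was at 19.0 FPKM in *pkl-1* and 1.44 FPKM in Col-0 (3.04). *SAG12*, the cysteine protease gene used as a marker of old leaves, was at 30.3 FPKM in *pkl-1* and 0.298 FPKM in Col-0 (4.59). *DMP1* was at 19.3 FPKM in *pkl-1* and was listed at 0 in Col-0. *ORE1*, *SAG12* and *DMP1* reached 1 FPKM in *pkl-1* only. Their direction therefore follows from the filter, and the count of 7 is to be read with that limit. The chlorophyll breakdown gene *NYE1*, at 24.4 FPKM in *pkl-1* and 12.6 FPKM in Col-0, stayed under 2-fold. Markers of the silique wall, a tissue that seeds leave behind at harvest, moved with these lists: *FUL*, *IND* and *ALC* were higher and *RPL* was not past 2-fold, with a summed level of 108 FPKM over the 4 markers in *pkl-1* and 49.9 FPKM in Col-0, and the part of that tissue in the result was not tested. The wider list of this tissue adds the secondary wall regulators *NST1*, at 3.49 FPKM in *pkl-1* and 2.16 FPKM in Col-0, and *NST3*, at 0.555 FPKM in *pkl-1* and 1.96 FPKM in Col-0, neither past 2-fold, and its 6 genes summed to 112 FPKM in *pkl-1* and 54.1 FPKM in Col-0. Of 4 pollen markers, *VGD1* and *AGP6* were past 2-fold upwards, at a summed level of 6.05 FPKM in *pkl-1* and 1.49 FPKM in Col-0, and none of the markers of either tissue was at 0. *FUL*, *IND*, *VGD1* and *AGP6* likewise reached 1 FPKM in *pkl-1* only.

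Regulators linked to abscisic acid were among the largest rises. *HB40* and *HB21* encode homeodomain-leucine zipper transcription factors that act upstream of abscisic acid synthesis in axillary buds. *HB40* was at 52.9 FPKM in *pkl-1* and 1.696 FPKM in Col-0 (4.32), and *HB21* was at 46.6 FPKM in *pkl-1* and 2.77 FPKM in Col-0 (3.66). The rest of their list of hormone synthesis and breakdown, 8 further expressed genes, contained no gene past 2-fold, with *CYP707A3*, a catabolic enzyme gene, closest at 4.50 FPKM in *pkl-1* and 1.83 FPKM in Col-0. Among 11 expressed genes of the abscisic acid response 3 were higher (27.3%, against 6.51% of all expressed genes) and none lower, with a median of 0.93. *HIS1-3*, the gene of the stress-inducible linker histone H1.3, was at 71.5 FPKM in *pkl-1* and 3.53 FPKM in Col-0 (4.00), and *MAPKKK18*, an abscisic acid-induced kinase gene, was at 4.16 FPKM in *pkl-1* and 0.105 FPKM in Col-0 (2.22). *RD20*, which encodes a stress-induced caleosin, was at 175 FPKM in *pkl-1* and 31.7 FPKM in Col-0 (2.43).

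Gibberellins oppose abscisic acid in seeds. Of the 10 expressed genes of their synthesis and breakdown 1 was higher (10%) and 3 were lower (30%). *GA2OX2*, whose enzyme inactivates the hormone, was at 38.8 FPKM in *pkl-1* and 8.06 FPKM in Col-0 (2.14). The lower genes encode enzymes of synthesis, with *KAO1* at 11.6 FPKM in *pkl-1* and 26.4 FPKM in Col-0, *KAO2* at 8.26 FPKM in *pkl-1* and 19.8 FPKM in Col-0, and *GA20OX3* at 1.79 FPKM in *pkl-1* and 4.83 FPKM in Col-0. *GA20OX2*, the list's most abundant member, was at 77.2 FPKM in *pkl-1* and 50.8 FPKM in Col-0 and was not past 2-fold. None of the 8 genes of the gibberellin receptors and DELLA repressors was past 2-fold, with a median of 0.52.

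Large falls lay in gene families of the cell surface and in small secreted proteins, several of them arranged in tandem. Lipid transfer protein-like genes encode small secreted proteins that carry lipids to the cuticle and wall. Of 58 expressed members 18 were lower (31.0%) and 11 higher (19.0%), against 6.11% and 6.51% of all expressed genes. Among all expressed genes with transcripts from 300 to under 600 nucleotides 28.7% were lower and 15.2% higher, and centring on the length class took the median of the family to -0.12, against -0.35 as deposited. The largest change of the family was a rise, that of AT1G62510, at 83.3 FPKM in *pkl-1* and 1.15 FPKM in Col-0 (5.29). The annotated span of AT1G62510 overlaps another gene. A tandem row of 4 lipid transfer protein-like genes on chromosome 5, between 15225767 and 15247329, was lower throughout. AT5G38160 was at 5.68 FPKM in *pkl-1* and 105 FPKM in Col-0 (-3.98). AT5G38170 was at 16.4 FPKM in *pkl-1* and 200 FPKM in Col-0 (-3.53). AT5G38180 was at 4.12 FPKM in *pkl-1* and 39.4 FPKM in Col-0 (-2.98), and AT5G38195 was at 56.2 FPKM in *pkl-1* and 116 FPKM in Col-0 (-1.03). Their transcripts are 420 to 444 nucleotides long, in a length class whose middle 90% of changes spans -2.06 to 1.58, wider than that of longer transcripts.

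The 250 bases before the annotated start of these 4 genes, and of a neighbouring pair of pectin methylesterase inhibitor genes that were also lower, are shown because each contains the RY element, the sequence recognized by the B3 domain factors that control seed genes, including the VAL repressors. Matches to CATGCA or its reverse complement TGCATG are in capitals, together with any match to the G-box CACGTG, to GAGAGAGA and to AAACCCTA on either strand. The genes shown were chosen after their values were seen and for holding the element, so that its presence in all of them is no result, and bases are from TAIR10.1, written 5′ to 3′ on the strand of the gene. They are chr5:15225517-15225766, chr5:15227388-15227637, chr5:15229560-15229809 and chr5:15246660-15246909 on the plus strand, then chr5:19062815-19063064 and chr5:19060122-19060371 on the minus strand.
AT5G38160: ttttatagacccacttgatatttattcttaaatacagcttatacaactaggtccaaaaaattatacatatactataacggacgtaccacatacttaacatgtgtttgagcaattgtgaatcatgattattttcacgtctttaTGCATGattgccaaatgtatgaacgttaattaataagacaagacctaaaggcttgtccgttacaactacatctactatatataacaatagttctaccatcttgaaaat
AT5G38170: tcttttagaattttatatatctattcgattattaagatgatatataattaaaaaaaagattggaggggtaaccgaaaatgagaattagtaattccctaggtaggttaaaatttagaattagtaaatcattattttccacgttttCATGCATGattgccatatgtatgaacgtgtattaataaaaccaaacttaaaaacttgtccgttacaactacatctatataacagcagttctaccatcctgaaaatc
AT5G38180: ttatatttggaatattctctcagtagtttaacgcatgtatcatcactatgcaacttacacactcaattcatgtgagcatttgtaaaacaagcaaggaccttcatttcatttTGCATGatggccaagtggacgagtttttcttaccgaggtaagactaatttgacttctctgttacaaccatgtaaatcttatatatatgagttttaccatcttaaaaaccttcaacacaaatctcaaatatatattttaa
AT5G38195: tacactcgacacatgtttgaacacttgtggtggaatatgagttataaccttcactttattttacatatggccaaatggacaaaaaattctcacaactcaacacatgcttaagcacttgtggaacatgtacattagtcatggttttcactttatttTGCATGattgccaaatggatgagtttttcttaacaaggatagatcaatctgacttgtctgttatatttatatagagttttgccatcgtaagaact
AT5G46960: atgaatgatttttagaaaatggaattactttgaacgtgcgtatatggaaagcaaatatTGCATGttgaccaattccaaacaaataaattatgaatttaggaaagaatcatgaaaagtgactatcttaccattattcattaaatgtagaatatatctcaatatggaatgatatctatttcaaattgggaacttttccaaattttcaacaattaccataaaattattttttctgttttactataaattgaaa
AT5G46950: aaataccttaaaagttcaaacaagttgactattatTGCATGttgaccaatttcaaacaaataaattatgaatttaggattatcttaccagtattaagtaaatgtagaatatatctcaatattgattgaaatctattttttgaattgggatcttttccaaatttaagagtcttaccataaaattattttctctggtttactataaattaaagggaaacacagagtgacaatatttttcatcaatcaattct

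The RY element lay 95 to 139 bases before the start in the lipid transfer protein-like row, and AT5G38170 held a pair of overlapping matches. In the inhibitor genes it lay 192 and 215 bases before the start. Over all expressed nuclear genes of at least 300 nucleotides, 7.12% of the 18393 windows of this length held an RY element, against 11.6% of the windows of the 1033 lower genes and 8.41% of those of the 1141 higher genes. Among genes at least 4-fold changed the shares were 12.6% of 151 lower and 4.19% of 167 higher genes. The G-box was in 7.36% of lower, 6.66% of higher and 7.33% of all windows, the GAGA repeat in 4.84%, 3.77% and 4.5%, and the telobox in 3.29%, 2.37% and 3.69%. The tandem expansin genes described next had no RY match in their windows, the window of AT4G12870, the most abundant lower gene, held a G-box 107 bases before the start and no RY element, and these matches are letters only, with no measurement of binding.

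*EXPA21*, *EXPA23* and *EXPA25* are neighbouring genes on chromosome 5 and encode expansins, which loosen cell walls during growth. *EXPA21* was at 185 FPKM in *pkl-1* and 1307 FPKM in Col-0 (-2.81), *EXPA23* at 335 FPKM in *pkl-1* and 1343 FPKM in Col-0 (-2.002), and *EXPA25* at 424 FPKM in *pkl-1* and 1007 FPKM in Col-0 (-1.24). Over the whole family 7 of 22 expressed members were higher, among them *EXPA6* at 74.0 FPKM in *pkl-1* and 19.2 FPKM in Col-0, and 5 were lower. AT5G46960 and AT5G46950, the inhibitor pair, were at 561 and 317 FPKM in *pkl-1*, against 2693 and 1496 FPKM in Col-0 (-2.26 and -2.24). Their family of pectin methylesterases and inhibitors, enzymes and antagonists that set the stiffness of pectin, had 23 lower and 14 higher of 74 expressed members, yet its most abundant mRNA, AT1G56100, differed by -0.35. *SBT1.7*, the subtilase gene needed for mucilage release, was at 1056 FPKM in *pkl-1* and 3654 FPKM in Col-0 (-1.79).

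GDSL lipases, some of which build cutin, showed extremes in both directions. AT5G22810 was at 3.35 FPKM in *pkl-1* and 63.3 FPKM in Col-0 (-3.88), AT1G71250 at 1.44 FPKM in *pkl-1* and 32.0 FPKM in Col-0 (-3.75), and AT5G03820 at 1.51 FPKM in *pkl-1* and 26.6 FPKM in Col-0 (-3.45). In contrast the cutin synthase gene *CUS2* was at 58.4 FPKM in *pkl-1* and 1.07 FPKM in Col-0 (4.84). In this family 11 of 51 expressed genes were lower and 4 higher. The annotated spans of AT5G22810, AT1G71250 and *CUS2* each overlap another gene, and since no strand-marking step is named in the library protocol their reads could be shared. Among 27 expressed genes of cutin, suberin and wax 5 were higher (18.5%) and 2 lower (7.41%). *FAR1*, a fatty acyl reductase of suberin, was at 11.2 FPKM in *pkl-1* and 0.629 FPKM in Col-0 (2.90), and *SHN3*, a regulator of cutin synthesis, at 36.7 FPKM in *pkl-1* and 11.5 FPKM in Col-0 (1.60). *CER2*, needed for very long wax chains, was at 42.0 FPKM in *pkl-1* and 112 FPKM in Col-0 (-1.39). *ENODL10*, an early nodulin-like gene, had the largest fall of any protein-coding gene of at least 300 nucleotides and 20 FPKM, at 0.955 FPKM in *pkl-1* and 33.8 FPKM in Col-0 (-4.16).

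**Figure D2:**
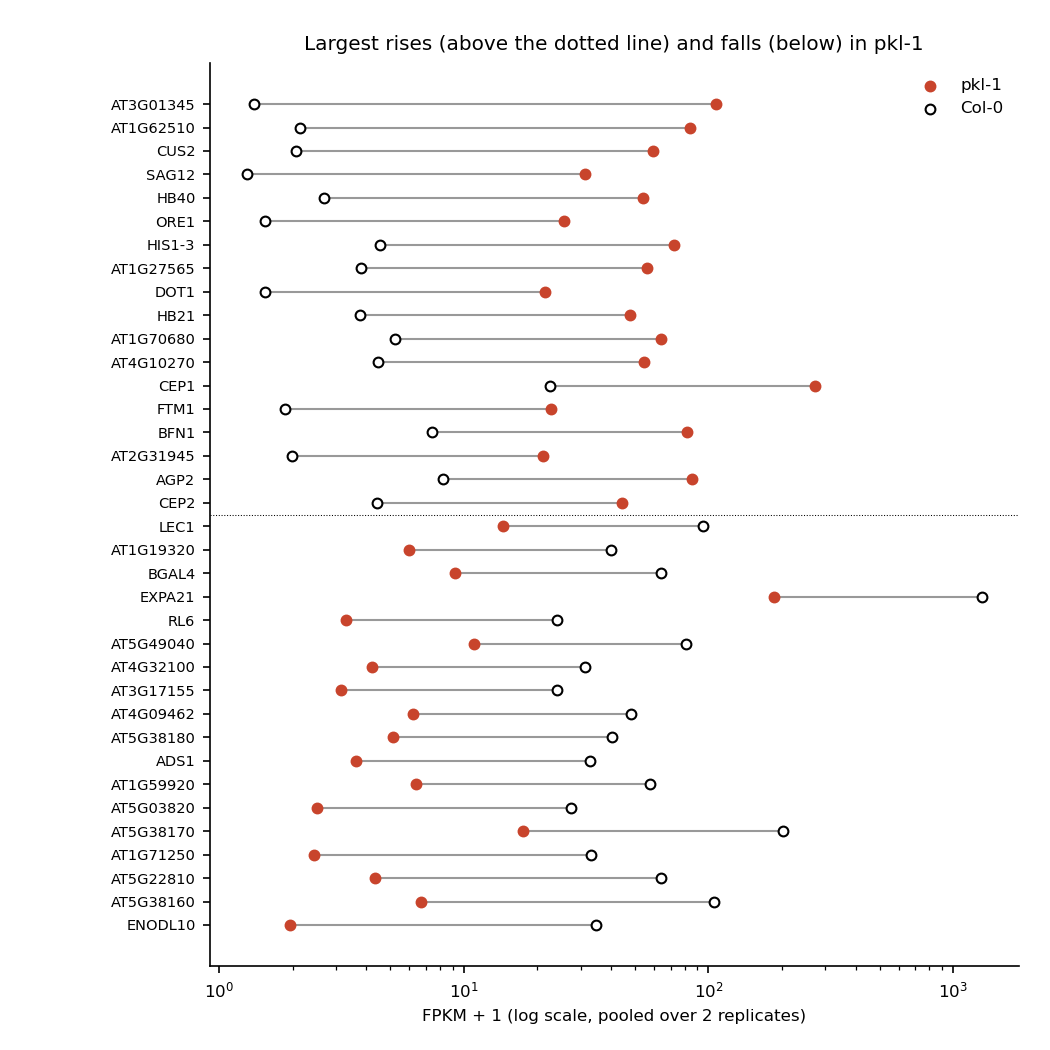
FPKM + 1 (log scale) in *pkl-1* (filled) and Col-0 (open) for the 18 largest rises and the 18 largest falls among protein-coding genes of at least 300 nucleotides and at least 20 FPKM in either genotype. The rises start from Col-0 values of 21.5 FPKM or less, while the falls include *EXPA21*, at 1307 FPKM in Col-0.

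Small secreted cysteine-rich proteins were lower as a class. Of 118 expressed defensin-like and thionin genes, 56 were lower and 10 higher, with a median of -0.94, and with transcripts of at least 300 nucleotides only, 45 of 93 were lower and 4 higher. AT2G21465 was at 367 FPKM in *pkl-1* and 1526 FPKM in Col-0 (-2.05). The thionin gene *THI2.1*, the most abundant member, hardly differed, at 3359 FPKM in *pkl-1* and 3415 FPKM in Col-0. Further families of small or seed-expressed proteins were listed after the values were seen. Self-incompatibility S1 homologs had 20 of 33 expressed genes lower (60.6%), ECA1-like genes 10 of 20 (50%), and DUF239 genes, whose products are mostly uncharacterized, 11 of 31 (35.5%). Of all expressed genes 6.11% were lower, of those from 300 to under 600 nucleotides 28.7%, and of those under 300 nucleotides 42.9%. From 1000 to under 2000 nucleotides the share was 5.21%. AT4G12870, which encodes a GILT-type thiol reductase, was the most abundant of all lower genes, at 4003 FPKM in *pkl-1* and 17952 FPKM in Col-0 (-2.16). Its neighbour AT4G12890 was at 1645 FPKM in *pkl-1* and 2199 FPKM in Col-0 (-0.42), and a further gene of this family was among the 4 genes of the table whose fragments were too many to be quantified, which are listed at 0. The defensin-like, S1 and ECA1-like genes have short transcripts. With each gene centred on the median of its length class, their medians became -0.58, -0.76 and -0.66, against -0.94, -1.14 and -1.04 as deposited. The DUF239 median was -0.41 when so centred and -0.47 as deposited.

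Neighbouring genes shared a direction in part. Of the lower genes of at least 300 nucleotides, 19.6% had a next expressed neighbour that was also lower, whereas 11% of all expressed genes had such a neighbour. For higher genes the shares were 15.8% and 11.9%. Genes of a tandem row share sequence, so reads may be divided among them.

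*LEC1*, the NF-Y subunit that drives embryo maturation and the best known gene kept silent by PKL in seedlings, was at 13.4 FPKM in *pkl-1* and 93.9 FPKM in Col-0 (-2.72). Of 11 expressed maturation regulators 5 were lower and 2 higher, with a median of -0.97. *BBM*, an AP2 factor of embryo growth, was at 1.61 FPKM in *pkl-1* and 5.495 FPKM in Col-0, *L1L*, the closest relative of *LEC1*, at 0.709 FPKM in *pkl-1* and 2.78 FPKM in Col-0, and *WRI1*, the regulator of oil synthesis, at 7.60 FPKM in *pkl-1* and 16.6 FPKM in Col-0. *LEC2* was at 0.253 FPKM in *pkl-1* and 1.46 FPKM in Col-0, just short of 2-fold after the offset of 1 FPKM. Those higher were *VAL1*, a B3 repressor of the maturation programme, at 4.6 FPKM in *pkl-1* and 1.64 FPKM in Col-0, and *ABI5*, a bZIP factor of abscisic acid responses, at 18.5 FPKM in *pkl-1* and 6.16 FPKM in Col-0.

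Storage genes were barely on at this age. Of 20 listed genes 6 reached 1 FPKM, all of them in Col-0 only, so that their direction follows from the filter and no count of lower members is read from them. All 20 listed genes together summed to 2.60 FPKM in *pkl-1* and 18.2 FPKM in Col-0. The 2S albumin gene *SESA1* was at 0.570 FPKM in *pkl-1* and 5.61 FPKM in Col-0 (-2.07), and the oleosin gene *OLEO3* at 0.325 FPKM in *pkl-1* and 3.92 FPKM in Col-0 (-1.89). At such levels the offset of 1 FPKM understates the difference. Of 24 expressed genes of embryo patterning 4 were lower and none higher (median -0.19, and 0.04 under the common nuclear sum), among them the boundary genes *CUC1* (1.59 FPKM in *pkl-1* and 5.49 FPKM in Col-0) and *CUC2* (0.700 FPKM in *pkl-1* and 4.62 FPKM in Col-0). *ATML1*, an epidermal factor of the embryo and the most abundant gene of this list, was at 42.9 FPKM in *pkl-1* and 51.0 FPKM in Col-0. The embryo markers *LEC1*, *L1L*, *WOX2* and *WOX8* summed to 16.3 FPKM in *pkl-1* and 102 FPKM in Col-0, nearly all of it *LEC1*.

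Of 21 expressed endosperm genes 5 were lower and none higher, with a median of -0.54, and -0.25 under the common nuclear sum. *ALE1*, a subtilase gene that acts in the endosperm on the cuticle of the embryo, was at 5.02 FPKM in *pkl-1* and 22.5 FPKM in Col-0 (-1.97). *ZOU*, which controls it, was at 4.61 FPKM in *pkl-1* and 8.99 FPKM in Col-0 (-0.83), short of 2-fold. The imprinted gene *HDG3* was at 8.43 FPKM in *pkl-1* and 24.7 FPKM in Col-0 (-1.44), and the imprinted MADS-box genes *PHE1* and *PHE2* were at 30.5 and 15.3 FPKM in *pkl-1*, against 59.9 and 32.6 FPKM in Col-0. *AGL62*, which holds back cellularization, was at 1.72 FPKM in *pkl-1* and 0.500 FPKM in Col-0 (0.86). In the HAIKU pathway of endosperm growth the WRKY gene *MINI3* was at 2.43 FPKM in *pkl-1* and 6.05 FPKM in Col-0, and the receptor kinase gene *IKU2* at 0.0446 FPKM in *pkl-1* and 0.268 FPKM in Col-0. Markers of the endosperm (*AGL62*, *PHE1*, *ZOU* and *IKU2*) summed to 36.9 FPKM in *pkl-1* and 69.6 FPKM in Col-0 with none past 2-fold, and their part in these values was not tested.

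Few seed coat genes were past 2-fold. All 17 genes of tannin and flavonol synthesis were expressed, 2 were higher and none lower, and their median was 0.36. *TT10*, a laccase that browns the coat, was at 18.9 FPKM in *pkl-1* and 7.66 FPKM in Col-0 (1.20), and *TT16*, a MADS-box gene, at 30.5 FPKM in *pkl-1* and 13.7 FPKM in Col-0 (1.103). *BAN*, the enzyme gene at the entry to tannins, was at 872 FPKM in *pkl-1* and 690 FPKM in Col-0. Mucilage genes had 2 of 26 lower, *SBT1.7* and the xylosidase gene *BXL1*, and none higher. That share of 7.69% lower is near the 6.11% of all expressed genes. All 28 listed mucilage genes together summed to 1859 FPKM in *pkl-1* and 4636 FPKM in Col-0, and *SBT1.7* held most of that difference.

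Among 17 expressed genes of sugar and amino acid supply to the seed 5 were lower and none higher (median -0.29, and 0.03 under the common nuclear sum). The sucrose exporters *SWEET11* (4.43 FPKM in *pkl-1* and 21.7 FPKM in Col-0) and *SWEET12* (27.1 FPKM in *pkl-1* and 67.0 FPKM in Col-0), the phloem sucrose carrier *SUC2* (46.4 FPKM in *pkl-1* and 170 FPKM in Col-0) and the amino acid permease *AAP8* (16.6 FPKM in *pkl-1* and 58.0 FPKM in Col-0) were lower. *SUS1*, a sucrose synthase gene, was at 149 FPKM in *pkl-1* and 152 FPKM in Col-0, and *SWEET15* was at 8.48 FPKM in *pkl-1* and 8.52 FPKM in Col-0. Oil synthesis changed little, with 2 of 16 genes higher and none lower, and *FAD2*, the main desaturase, was at 710 FPKM in *pkl-1* and 1034 FPKM in Col-0 (-0.54). Among 12 genes of carbon starvation, *ASN1*, an asparagine synthetase gene, was at 12.4 FPKM in *pkl-1* and 1.62 FPKM in Col-0 (2.35) and *LKR*, which degrades lysine, at 31.5 FPKM in *pkl-1* and 8.47 FPKM in Col-0 (1.78), while *DIN10* and *BCAT2* were lower.

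Of 35 nuclear photosynthesis genes 32 were below 0, but only 2 were past 2-fold downwards and none upwards, with a median of -0.54, and -0.22 under the common nuclear sum. *LHCB1.3*, a light-harvesting protein gene, was at 2006 FPKM in *pkl-1* and 4556 FPKM in Col-0 (-1.18), and *LHCB1.4* at 3.93 FPKM in *pkl-1* and 31.3 FPKM in Col-0 (-2.71). Transcripts of the plastid genome mostly lack poly(A) tails and are largely lost in such libraries. Of 48 chloroplast-encoded genes of at least 300 nucleotides, 24 were lower and none higher (median -1.01), whereas none of the 10 expressed chloroplast regulators was past 2-fold. Ribosomal protein genes had a median of -0.36 over 340 genes, and -0.038 under the common nuclear sum, with 2 higher and 7 lower. The 47 expressed histone genes had a median of -0.47, and -0.090 under that sum, with *HIS1-3* as the only higher member and *HTA6* (301 FPKM in *pkl-1* and 752 FPKM in Col-0) and *HTA11* lower. Cyclins and their kinases had 5 lower (6.41%) and 4 higher (5.13%) of 78, near the 6.11% and 6.51% of all expressed genes. Among the lower ones *CDKB1;1*, a mitotic kinase gene, was at 12.4 FPKM in *pkl-1* and 36.0 FPKM in Col-0 (-1.47).

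Clock genes of the evening included *GRP7*, an RNA-binding protein gene under clock control, at 851 FPKM in *pkl-1* and 3980 FPKM in Col-0 (-2.22), and *FKF1*, a light-sensing F-box gene, at 7.78 FPKM in *pkl-1* and 34.9 FPKM in Col-0 (-2.03), in all 3 lower of 9. Among the 10 morning genes *LNK1* was higher and none lower. The harvest hour of each genotype is not given in the sources used here, so the hour and the genotype cannot be told apart for these genes. Of the cold-response genes *COR15A* was at 2.13 FPKM in *pkl-1* and 17.9 FPKM in Col-0 (-2.60) and *ERD10* was higher. The floral repressor gene *MAF4* was at 3.39 FPKM in *pkl-1* and 0.244 FPKM in Col-0 (1.82), and *MAF5* was at 1.31 FPKM in *pkl-1* and listed at 0 in Col-0. Polycomb genes, whose products write and read H3K27me3, hardly moved, with *RING1B* (6.53 FPKM in *pkl-1* and 2.32 FPKM in Col-0) as the only gene of 15 past 2-fold.

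The counts of the further families are to be read against the 6.51% of higher and 6.11% of lower genes among all expressed genes. Pectate lyase-like genes had 9 higher and 6 lower of 52, with AT1G67750 at 99.8 FPKM in *pkl-1* and 14.5 FPKM in Col-0 (2.70). Xyloglucan-modifying *XTH* genes had 2 higher and 3 lower of 19. Peroxidases had 8 higher and 2 lower of 29, among them *PER64*, which acts in lignin deposition, at 361 FPKM in *pkl-1* and 133 FPKM in Col-0 (1.43). Arabinogalactan protein genes, a family listed after the values were seen, had 12 higher and 1 lower of 40 with a median of 0.48, and *AGP2* was at 84.2 FPKM in *pkl-1* and 7.25 FPKM in Col-0 (3.37). In *pkr2-2;pkl-10* against *pkr2-2* this family had 6 higher and 4 lower of 43 expressed members, with a median of -0.13. *TGG1*, a myrosinase gene of plant defence, was at 152 FPKM in *pkl-1* and 31.7 FPKM in Col-0 (2.23), and cytochrome P450 genes had 13 higher and 17 lower of 103. Heat shock protein genes had 2 higher and 2 lower of 55 (3.64% each), MYB genes 7 and 4 of 65 (10.8% and 6.15%), F-box genes 13 and 27 of 230 (5.65% and 11.7%) and glycosyl hydrolase genes 4 and 10 of 99, several of these shares near or below those of all genes. Aspartyl protease genes had 7 higher and 9 lower of 46 and papain-like protease genes 2 and 3 of 28, both listed after the values were seen. The annotated span of 32.0% of expressed and 26.4% of called genes overlaps another gene; among those named are *PKL*, *DMP1*, *PASPA3*, *ALC*, *EXPA21*, *FAR1*, *CER2*, *ASN1*, *KAO1*, *LHCB1.3*, *FKF1*, *THI2.1*, *PER64* and *CDKB1;1*.

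The same question was put to the seeds in which *PKL* was lost through *pkl-10*, with *pkr2-2;pkl-10* set against *pkr2-2*. In that comparison 6.77% of 18906 genes of at least 300 nucleotides were higher and 7.11% lower (7.07% and 7.51% with shorter transcripts included). Of the 1142 genes higher in *pkl-1*, 624 were also higher there (54.6% of the *pkl-1* set and 48.8% of the 1280 of the other). Of the 1059 lower genes 721 were also lower (68.1% and 53.6% of 1344). The sign was the same for 93.3% of the higher and 95.9% of the lower genes expressed in both, and 10 and 9 genes were past 2-fold in the opposite direction. A same-sign share over all genes expressed in both was not computed, so these sign shares have no baseline. For changes of at least 4-fold, 146 of 167 higher and 134 of 151 lower genes were past 2-fold in the same direction. Both comparisons were scaled separately by the authors and differ in the allele of *PKL* and in the presence of *PKR2*.

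The leading groups were seen in that comparison as well. *LEC1* measured 5.54 FPKM in *pkr2-2;pkl-10*, against 79.8 FPKM in *pkr2-2* (-3.63). *HB40* differed by 4.01, *ORE1* by 4.43, *HIS1-3* by 4.48 and *CEP1* by 3.27 on the log2 scale. The cell death list again had 8 of 9 genes higher, against 7.07% of all expressed genes there. That list was put together after values were seen, so this count too is a description. The lipid transfer protein-like row differed by -4.40, -4.09, -3.24 and -2.45 in the order of the genes, and *ENODL10* by -4.07. Some large changes of *pkl-1* were not seen there. AT3G01345, which had the largest rise of a protein-coding gene of at least 300 nucleotides, at 106 FPKM in *pkl-1* and 0.385 FPKM in Col-0, measured 0.862 FPKM in *pkr2-2;pkl-10*, against 0.476 FPKM in *pkr2-2*. AT1G27565 was at 55.3 FPKM in *pkl-1* and 2.80 FPKM in Col-0, but measured 0.589 FPKM in *pkr2-2;pkl-10*, against 1.23 FPKM in *pkr2-2*. *COR15A* differed by 0.02 there. Only 1 line per allele was sampled, so that what belongs to the line and what to the allele cannot be told apart.

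**Figure D3:**
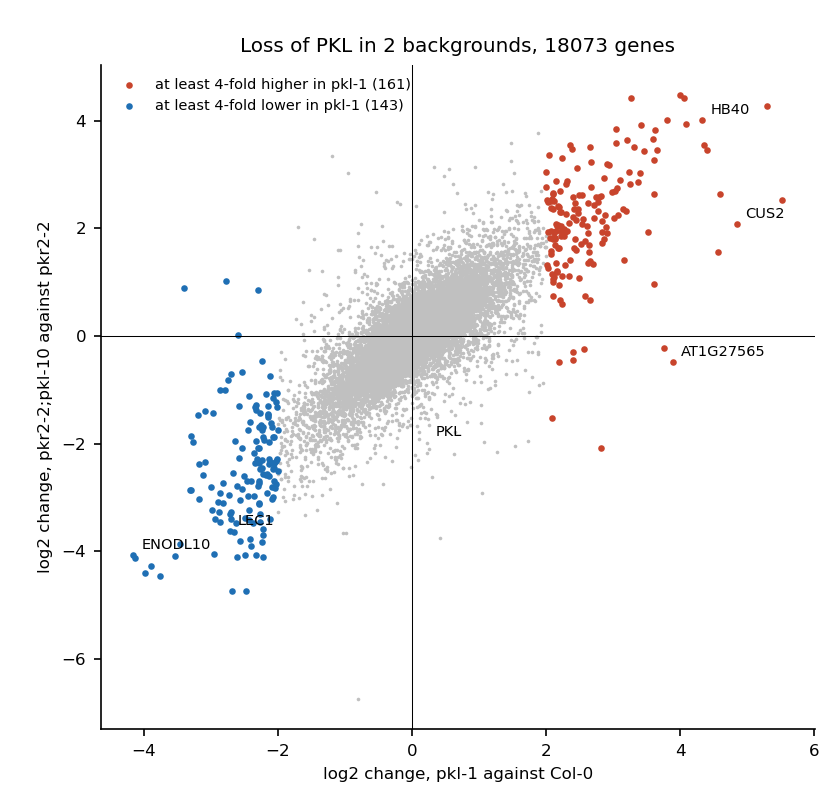
Log2 difference of *pkr2-2;pkl-10* against *pkr2-2* (vertical axis) by that of *pkl-1* against Col-0 (horizontal axis) for 18073 genes of 300 nucleotides or more that reached 1 FPKM in both comparisons; 161 genes at least 4-fold higher in *pkl-1* are red and 143 at least 4-fold lower are blue. Most red points lie above 0 and most blue points below it on the vertical axis, whereas *PKL* itself lies low on that axis only.

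The spread of changes depended on the length of the transcript. In transcripts under 300 nucleotides 38.1% of 189 expressed genes were higher and 42.9% lower. From 300 to under 600 nucleotides 15.2% were higher and 28.7% lower with a median of -0.38, and at 2000 nucleotides or more 3.96% were higher and 2.06% lower with a median of 0.10. The *pkr2-2;pkl-10* comparison had medians of -0.43 and 0.20 in these last classes. Because the defensin-like, S1, ECA1-like and ribosomal protein genes are short, the length class moves with their medians, and its part in them was not tested beyond the centred values given with the alternatives. The 15 largest rises and the 15 largest falls by the rule for named genes, with at least 5 FPKM in either genotype, held 8 and 11 such short transcripts. They were led by the small RNA AT3G02445 of 82 nucleotides (7332 FPKM in *pkl-1*, listed at 0 in Col-0) and AT1G07903 of 116 nucleotides (listed at 0 in *pkl-1*, 398 FPKM in Col-0). In each set 11 of 15 genes were listed at 0 in either genotype, which in this kind of file can be a failed estimate, and only 7 of the rises and 5 of the falls were past 2-fold in the same direction in the *pkr2-2;pkl-10* comparison. Of the longer members, AT3G01345, AT1G62510, *CUS2*, *SAG12*, *ENODL10*, AT5G38160 and AT5G22810 are described above. The others, AT4G04223, AT1G04503 and AT5G01765 among the rises and AT3G09875 among the falls, are non-coding RNAs listed at 0 in either genotype.

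**Figure D4:**
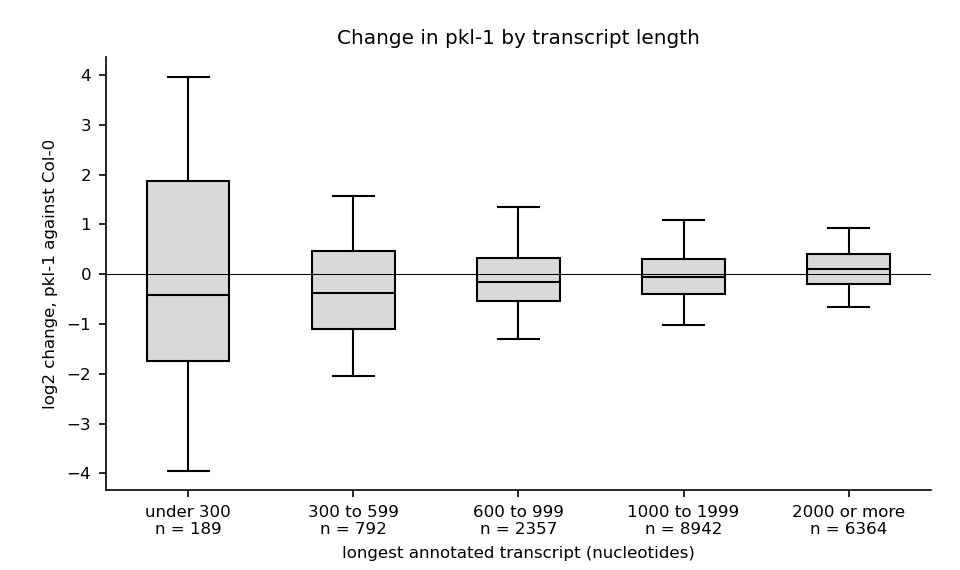
Log2 difference of *pkl-1* against Col-0 (vertical axis) in 5 classes of the longest annotated transcript (horizontal axis); boxes span the quartiles, lines the medians and whiskers the 5th to the 95th percentile, with the number of expressed genes under each box. The whiskers reach from -3.96 to 4.099 under 300 nucleotides and from -0.66 to 0.93 at 2000 nucleotides or more.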

How the data were processed

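Seeds of *pkl-1* and Col-0 were compared through the gene table of that pair. Per the study's methods, Fastp trimming preceded mapping by TopHat2 (2.1.1) against TAIR10.1, and the authors computed the deposited FPKM with Cufflinks (2.2.1.3) under geometric normalization, pooled over 2 replicates into 1 value per genotype. The deposited tables also hold the authors' fold changes, test statistics, p and q values, none of which was used. The depth behind each value is unknown, so precision could not be computed.

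From the deposited FPKM the log2 ratio with a pseudocount of 1 was computed, without a test, since pooled values have no spread. A gene was counted at 2-fold or more with at least 1 FPKM in either genotype. Names, product names, positions and longest spliced transcript lengths were taken from the RefSeq annotation of TAIR10.1, in which 38158 of 38209 genes were found. Named genes were *PKL*, *PKR2*, the 15 largest rises and falls at 5 FPKM or more, and in each list the members with the largest changes and the highest FPKM. The members, lists and this rule were chosen with earlier results of these data known, 2 gene lists and 7 families after the values were seen, and the leading genes were then read from transcripts of at least 300 nucleotides. Some genes named for their role or abundance, such as *LEC2*, *SCPL48*, *CYP707A3*, *ZOU* and *SWEET15*, fall outside the rule and were chosen after their values were seen. The alternatives were other pseudocounts, filters, thresholds, centrings, the common nuclear sum, a length limit and length-class centring. The counting was tested on simulated data of 18347 genes for this comparison, with 200 genes changed at least 4-fold: 200 were recovered and 0 unchanged genes called. The simulation held counting noise only, without variation between replicates, and only transcripts of at least 300 nucleotides. Its changed genes had at least 5 FPKM in Col-0. It therefore checks the arithmetic of the counting and gives no rate of false calls for the real values. Python 3.11.15, numpy 2.4.6, pandas 2.3.3 and matplotlib 3.10.9 were used.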

Additional observations from a re-analysis of the deposited data

Results flagged for a closer look

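For 4 short transcripts among the largest changes, loss of *PKL* went with opposite differences past 2-fold in the 2 backgrounds, and the difference between the backgrounds was not tested. The chloroplast gene *rpl32* (159 nucleotides) was at 49.97 FPKM in *pkl-1* and listed at 0 in Col-0, and it was listed at 0 in *pkr2-2;pkl-10* and at 148 FPKM in *pkr2-2*. The thionin-family gene AT2G20619 (201 nucleotides) was listed at 0 in *pkl-1* and at 62.7 FPKM in Col-0, and it measured 16.6 FPKM in *pkr2-2;pkl-10* and was listed at 0 in *pkr2-2*. The chloroplast gene *psbH* (222 nucleotides) was listed at 0 in *pkl-1* and at 51.6 FPKM in Col-0, and it measured 5.501 FPKM in *pkr2-2;pkl-10* and was listed at 0 in *pkr2-2*. The non-coding RNA AT4G09715 (269 nucleotides) was listed at 0 in *pkl-1* and at 14.4 FPKM in Col-0, and it measured 1.18 FPKM in *pkr2-2;pkl-10* and was listed at 0 in *pkr2-2*.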

How the results depend on the processing

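No paired analysis was possible because the deposited columns pool the replicates, and for the same reason no replicate could be left out. The count of higher genes, 1214, became 1884 with a pseudocount of 0.1, 373 with 5, 744 with at least 5 FPKM, 213 at 4-fold and 2220 under the common nuclear sum. The count of lower genes, 1140, became 533 with a pseudocount of 5, 189 at 4-fold and 717 under the common nuclear sum. The other alternatives left both counts within 1.5 times, among them centring on the length class, added after seeing the data, with 1362 higher and 929 lower, 59.5% of calls higher. No list median past 2-fold changed sign. With a pseudocount of 0.1 the medians moved for storage genes (-3.36), pollen genes (1.96) and senescence genes (3.85). With a pseudocount of 5 they moved for maturation regulators (-0.30), storage genes (-0.49), pollen genes (0.46), cell death genes (2.47) and senescence genes (1.496). With every listed gene they were -0.37 for maturation regulators, -0.29 for storage genes, 0.55 for pollen genes, -0.42 for GILT reductases, -0.011 for S1 homologs and 0 for defensin-like, peroxidase, ECA1-like and chloroplast-encoded genes, since unexpressed genes have a difference of 0. With at least 5 FPKM they were 1.90 for the list of abscisic acid synthesis and breakdown, 0.77 for cold-response genes, -0.15 for peroxidases and -2.04 for GILT reductases, over fewer genes. The abscisic acid list includes the regulators *HB40* and *HB21*, its only members past 2-fold, and its median as deposited was 0.30. Under the common nuclear sum the medians of 15 of the 50 lists, all between -0.29 and -0.03 as deposited, came out above 0. For the 116 named genes and 5 alternatives, 524 of 580 values stayed on the same side of 2-fold, 46 dropped under it, 10 passed it and 0 were reversed; 28 of the 46 dropped with a pseudocount of 5, which shrinks genes of low FPKM such as *CUC2*, *L1L* and *SESA1*. Depth limits the short and scarce transcripts most, and no value has a replicate error.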

Other observations

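Some genes that differed in *pkl-1* differed likewise in *pkr2-2*, which was compared with the same Col-0 libraries. AT2G21220, a SAUR-like gene, was at 43.05 FPKM in *pkl-1* and 6.46 FPKM in Col-0, at 52.1 FPKM in *pkr2-2* and 5.89 FPKM in Col-0 in the other table, and at 52.1 FPKM in *pkr2-2;pkl-10* and 61.4 FPKM in *pkr2-2*. *MYBR1* was at 63.5 FPKM in *pkl-1* and 19.2 FPKM in Col-0, and at 52.5 FPKM in *pkr2-2* and 17.51 FPKM in Col-0. *BXL1* was at 56.8 FPKM in *pkl-1* and 172 FPKM in Col-0, and at 36.0 FPKM in *pkr2-2* and 157 FPKM in Col-0. In the comparison of *pkr2-2;pkl-10* with *pkr2-2* these genes differed by -0.23, -0.05 and -0.27 on the log2 scale. The kelch repeat gene AT1G80440 was at 6.06 FPKM in *pkl-1* and 33.5 FPKM in Col-0, at 1.45 FPKM in *pkr2-2* and 30.6 FPKM in Col-0, and at 3.88 FPKM in *pkr2-2;pkl-10* and 1.71 FPKM in *pkr2-2*. For such genes a difference of both mutants and a difference of the Col-0 libraries cannot be told apart.

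The arabinogalactan protein genes divided by this measure. *AGP2* and *AGP14* differed by 3.37 and 3.04 in *pkl-1* against Col-0 and by 2.87 and 3.84 in *pkr2-2;pkl-10* against *pkr2-2*. *FLA2*, *AGP18* and *AGP21* differed by 1.45, 1.32 and 1.47 in *pkl-1* against Col-0 and by -0.25, 0.26 and 0.39 in *pkr2-2;pkl-10* against *pkr2-2*. The same 3 genes differed by 1.90, 1.11 and 1.64 in *pkr2-2* against Col-0, a comparison that shares the Col-0 libraries.

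Plastid and nuclear photosynthesis genes had medians below 0 in both losses of *PKL* as deposited. Chloroplast-encoded genes of at least 300 nucleotides had a median of -1.01 in *pkl-1* and -1.93 in *pkr2-2;pkl-10*, each against its own control, and nuclear photosynthesis genes had -0.54 and -0.31 in the same order. Ribosomal protein genes had medians of -0.36 and -0.64 in the same order, with 7 lower of 340 expressed genes in *pkl-1* and 42 lower of 338 in *pkr2-2;pkl-10*. These tables were scaled separately.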
